A study of Mus musculus with 23 samples.

Results

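The interferons and interferon receptors described here are 7 of the 22180 genes measured in SCs and macrophages sorted from mouse nerve and neurofibroma, a benign tumor of the nerve sheath. They were chosen by name and comprise 3 ligands (Ifnb1, Ifna14 and Ifng) and the 4 receptor chains (Ifnar1, Ifnar2, Ifngr1 and Ifngr2). For each gene the transcript cluster with the highest mean would have been kept, but each of the 7 had 1 cluster. The type I interferons, which include interferon beta (Ifnb1) and the interferon alpha genes (Ifna14 among them), are released by most cells on contact with viral nucleic acid and act through a receptor made of the chains IFNAR1 and IFNAR2. Interferon gamma (Ifng), the type II interferon, comes mainly from T cells and NK cells and acts through IFNGR1 and IFNGR2, with macrophages as its best-known responders. Both receptors signal through JAK kinases and STAT factors and switch on overlapping sets of antiviral and antigen-presentation genes.

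All mice carried floxed Nf1 alleles. Wild-type cells came from dorsal root ganglia and nerve of 1-month-old Nf1fl/fl mice without Cre, which the labels give as Nf1+/+. The mutant cells came from the nerve of 1-month-old Nf1fl/fl;DhhCre mice, before tumors form, although the labels call this tissue neurofibroma, and the neurofibroma cells came from tumors of 7-month-old Nf1fl/fl;DhhCre mice. DhhCre deletes Nf1 in the SC lineage, so the labels list these SCs as Nf1-/- and the macrophages of the same mice as Nf1+/+. The p75+ SC fraction also holds cells in which Cre did not act, young mice were pooled to obtain enough cells, and the labels give the strain as a mixture of C57BL/6 and BALB/c. Tissue was digested for hours at body temperature before sorting, and there was no wild-type group at 7 months. SCs (p75+) gave 3 arrays in each of the 3 groups, and macrophages (sorted for CD11b and the surface glycoprotein encoded by Adgre1) gave 3 wild-type, 5 mutant nerve and 4 neurofibroma arrays. Nothing in the labels says that the arrays of a group came from separate litters or cultures, so the tests measure the spread between arrays.

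Deposited values were log2 signals on 2 levels, with array medians of 3.74 to 3.86 at 1 month and of 2.92 to 2.97 at 7 months. A universal control RNA was on 1 array at each level, with medians of 3.88 and 3.04, and this pair alone bridges the array sets. Levels below are log2 values after ComBat adjustment for the array set, unless called deposited. The adjustment leaves mean differences within 1 age as they were but rescales the spread, so it touches their standard errors and p-values, whereas age and array set cannot be told apart in the sorted cells except through the control pair. As a yardstick for signal without transcript, 1394 olfactory and vomeronasal receptor genes were used, whose 95th percentile lay between 3.28 and 3.89 on the arrays. The 12 macrophage markers averaged 9.03 to 9.85 in macrophages and 3.94 to 5.42 in SCs, and the 10 measured SC markers 6.65 to 7.20 in SCs and 3.88 to 5.75 in macrophages. Seminal vesicle genes, foreign to nerve, were found on wild-type macrophage arrays 5 and 6, wild-type SC arrays 2 and 3 and 1 neurofibroma SC array, that with the lowest Ifnb1 of its group.

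Ifnb1 and Ifna14 lie in the interferon cluster of chromosome 4 (GRCm38.p6), at chr4:88522025-88522794 and chr4:88571229-88571798. Ifng (chr10:118441046-118445894) and Ifngr1 (chr10:19591949-19610229) are far apart on chromosome 10. The other receptor chains are neighbors on chromosome 16, in the order Ifnar2 (chr16:91372783-91405589), Il10rb, Ifnar1 (chr16:91485032-91510523) and Ifngr2 (chr16:91547059-91564007). A RefSeq window of 250 bases was available for all 7 genes and was searched for motifs on both strands. It lay upstream of the annotated start, except for Ifnar1, whose window (chr16:91484965-91485214) runs past the gene start given above. Motifs were an IRF-type element (AANNGAAA), an NF-kB site (GGGA and TTCC with any 2 bases between) and a TATA box (TATAAA). A GC box (GGGCGG) was searched for as well. Shown are the ligands called between tissues, Ifnb1 and Ifna14, and Ifngr2, the receptor chain furthest apart between the cell types of neurofibroma, with the matches in capitals. The first 2 run from 250 to 71 bases before the start on the minus strand (chr4:88522865-88523044 and chr4:88571869-88572048), and the last covers all 250 bases on the plus strand (chr16:91546809-91547058).
Ifnb1: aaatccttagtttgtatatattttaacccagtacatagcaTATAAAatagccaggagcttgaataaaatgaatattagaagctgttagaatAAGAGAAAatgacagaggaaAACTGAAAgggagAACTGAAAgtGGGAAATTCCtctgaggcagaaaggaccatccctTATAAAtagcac
Ifna14: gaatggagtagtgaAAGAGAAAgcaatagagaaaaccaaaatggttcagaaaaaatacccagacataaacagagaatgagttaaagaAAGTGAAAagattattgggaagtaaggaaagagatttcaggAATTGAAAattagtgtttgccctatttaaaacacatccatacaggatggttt
Ifngr2: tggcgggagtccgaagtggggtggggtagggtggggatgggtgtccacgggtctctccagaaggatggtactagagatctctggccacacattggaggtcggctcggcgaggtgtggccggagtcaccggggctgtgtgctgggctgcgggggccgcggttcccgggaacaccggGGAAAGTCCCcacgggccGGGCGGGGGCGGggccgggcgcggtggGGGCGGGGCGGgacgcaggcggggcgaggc

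The Ifnb1 stretch held 3 IRF-type elements, 1 NF-kB site close behind the last of them and 2 TATA boxes. Ifna14 held 3 IRF-type elements and neither of the other ligand motifs. Ifng held 1 IRF-type element and 1 TATA box, the latter 30 bases before its start. Of 32851 windows of the same length, 21.3% held an IRF-type element, 1.21% the NF-kB site, 12.4% a TATA box and 32.7% a GC box. No receptor window held an IRF-type element or a TATA box. Ifngr2 held 4 GC boxes and 1 NF-kB match on the minus strand. Ifnar1 and Ifngr1 held 2 GC boxes each, and Ifnar2 matched none of the motifs. Because the Ifnar1 window runs past the gene start given above, its matches and GC content do not describe upstream sequence alone. No match overlapped one of another motif, and a match of letters says nothing of binding in these cells. The ligand windows had a GC content of 39.6% (Ifnb1), 39.2% (Ifna14) and 45.2% (Ifng), below the median of 52.4% over all windows, and the receptor windows lay between 54.0% and 74.0%.

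Ifnb1 was high in macrophages and at the level of unexpressed genes on nearly all SC arrays. On the wild-type macrophage arrays its level was 10.34, 10.72 and 10.79, on mutant nerve arrays it ranged from 9.24 to 9.89 with a median of 9.52, and on neurofibroma arrays it was 7.53, 8.21, 9.00 and 7.96. In SCs it was 2.73, 4.44 and 3.32 in wild-type nerve, 1.84, 1.81 and 1.99 in mutant nerve, and 3.00, 2.52 and 2.05 in neurofibroma. The 3 macrophage groups did not overlap each other, their order being wild type, mutant nerve and neurofibroma, and all lay above every SC array. In SCs only wild-type array 2, which also carried seminal vesicle genes, rose above the yardstick of unexpressed genes. Measured against that yardstick, Ifnb1 in macrophages exceeded SCs at least 117-fold in wild-type nerve, at least 61.0-fold in mutant nerve and at least 25.5-fold in neurofibroma. The fitted differences (SC minus macrophage) were -7.12, -7.61 and -5.65, with adjusted p of 6.08e-12, 2.45e-13 and 5.17e-11.

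**Figure D1:**
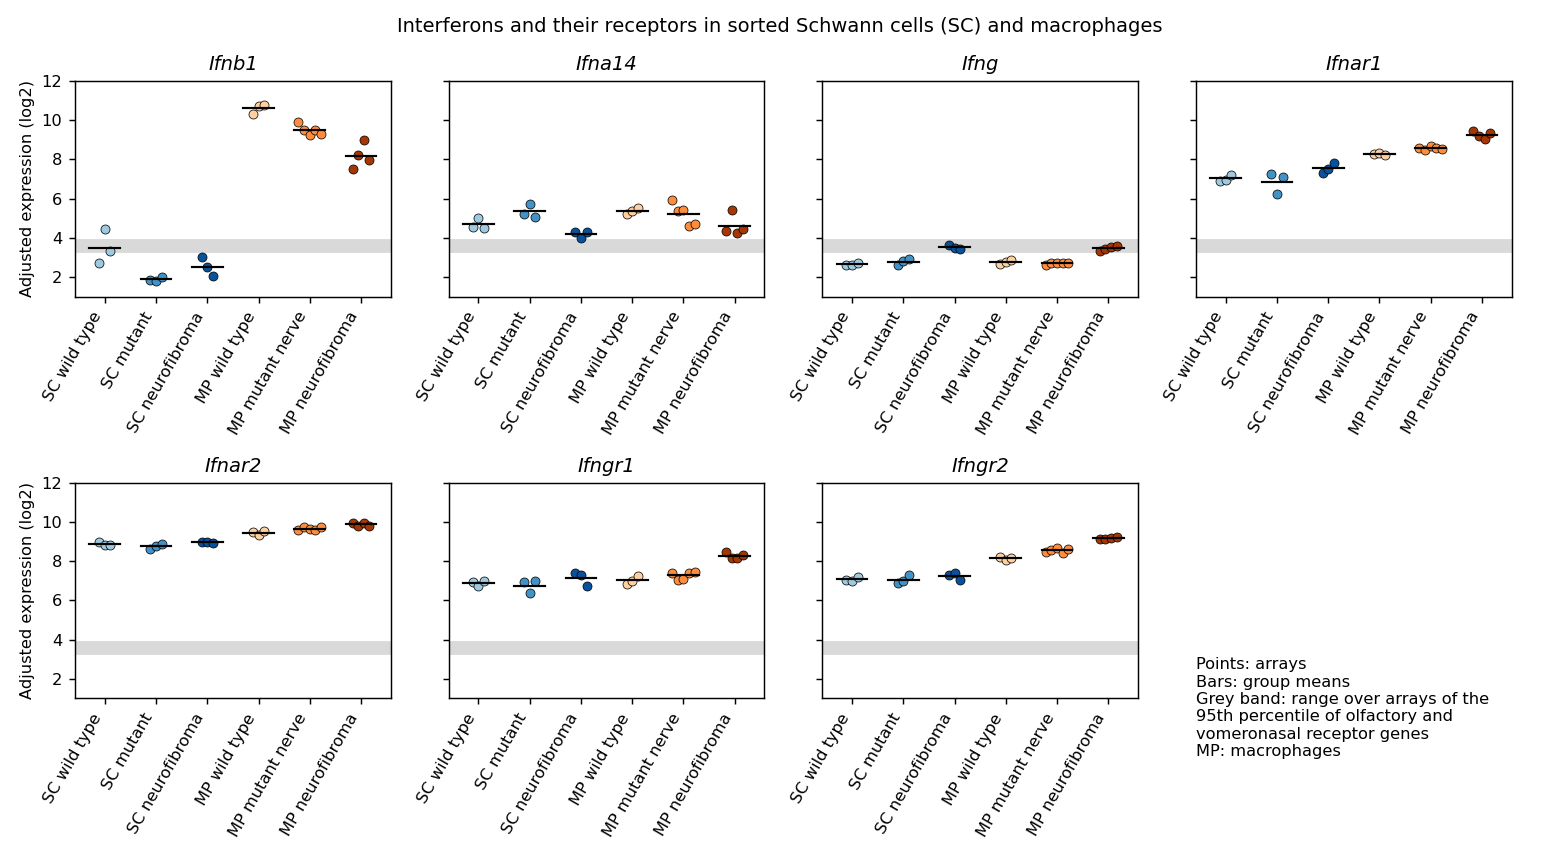
Adjusted log2 expression (vertical axis) of the 7 genes on each of the 21 sorted-cell arrays, by group, with bars at group means and a grey band for the level of unexpressed genes (3.28 to 3.89). Ifnb1 stands at 7.53 to 10.79 in macrophages and near or under the band in SCs, the receptor chains lie above the band on all arrays, and Ifng lies below or within it.

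Ifna14 was weak in both cell types. Its SC levels were 4.54, 5.02 and 4.49 in wild-type nerve, 5.24, 5.73 and 5.08 in mutant nerve, and 4.28, 3.98 and 4.31 in neurofibroma. In macrophages they were 5.20, 5.37 and 5.54 in wild-type nerve, 4.61 to 5.91 (median 5.38) in mutant nerve, and 4.36, 5.41, 4.25 and 4.46 in neurofibroma. All 21 arrays lay above the yardstick, by 0.52 to 2.29, and the group means, which ran from 5.37 in wild-type macrophages to 4.19 in neurofibroma SCs, overlapped with their neighbors throughout. The difference between SCs and macrophages did not pass the test in any tissue (-0.68, 0.14 and -0.43, the smallest adjusted p being 0.094). The 7 measured markers of plasmacytoid dendritic cells, a known source of interferon alpha, averaged 4.44 to 5.57 on the sorted-cell arrays. On the universal controls they averaged 6.19 and 6.21. On a sorted-cell array 4 to 6 of them lay above the yardstick. Group means were highest for Bst2 (6.32 to 10.51) and Tcf4 (6.61 to 7.81), while those of Ccr9 were 2.83 to 3.69. Those of Ly6d were 4.02 to 4.95 and those of Pacsin1 3.74 to 3.95. Siglech had means of 5.83 to 6.02 in macrophages and 3.6 to 4.03 in SCs. Klk1 went the other way, with 1.99 to 2.88 in macrophages and 3.4 to 5.62 in SCs. The presence of such cells was not tested. The interferon alpha genes are close copies of each other, so a signal assigned to Ifna14 may come in part from its relatives.

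Ifng could not be separated from unexpressed genes. Its deposited levels were 3.09 to 3.44 on all 1-month-old arrays and 2.41 to 2.67 on all 7-month-old arrays, so the ages did not overlap, with the older cells lower. As a percentile among the genes of the same array, deposited Ifng ran from 27.9 to 36.6 at 1 month and from 32.3 to 39 at 7 months. After adjustment the same arrays read 2.61 to 2.93 at 1 month and 3.35 to 3.63 at 7 months, with the older cells higher. In deposited values Ifng lay below the yardstick on 21 of 21 arrays, where 7.68% to 15.2% of the olfactory and vomeronasal genes reached its level or more. After adjustment it lay above the yardstick on 2 of 21 arrays, both of neurofibroma SCs, by 0.13 and 0.02. The reversal follows the universal control, in which Ifng read 3.62 in the set of the younger mice and 2.12 in that of the older mice, a difference of -1.5 against a median of -0.63 over all genes. A difference this low or lower was found for 5.2% of genes. The differences between SCs and macrophages, -0.11, 0.09 and 0.04, did not pass the test in any tissue (standard error at most 0.11). The 12 measured T and NK cell markers averaged 2.64 to 3.85, and 1 to 7 of them lay above the yardstick on an array. The array with 7 was mutant SC array 9. Ifng there was 2.93, the highest adjusted value at 1 month but below the yardstick (difference -0.53). On the 7-month-old arrays, where adjusted Ifng was higher, 1 to 2 of these markers lay above the yardstick. A relation between Ifng and these markers was not tested.

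**Figure D2:**
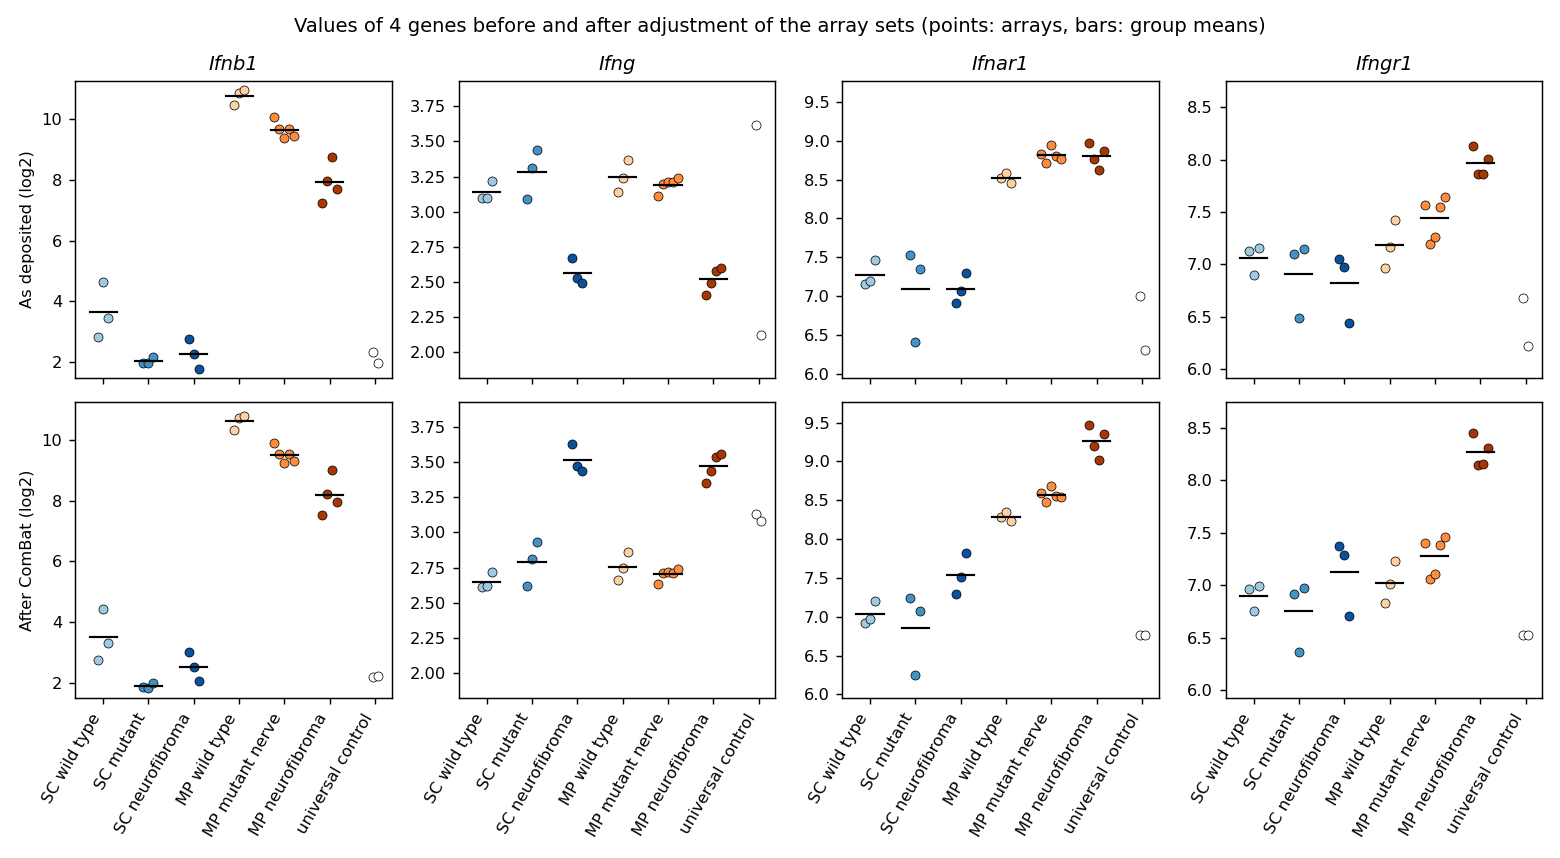
Log2 values of Ifnb1, Ifng, Ifnar1 and Ifngr1 (vertical axes) as deposited (top) and after ComBat (bottom) by group, with each universal control array as an open point and bars at group means. The adjustment turns the order of the ages for Ifng (2.41 to 2.67 at 7 months as deposited, 3.35 to 3.63 after), and opens the gap between mutant nerve and neurofibroma macrophages for Ifnar1, while Ifnb1 falls from wild type to neurofibroma macrophages on both scales.

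The receptor chains were present in both cell types and higher in macrophages, apart from Ifngr1 in wild-type nerve. Ifnar1, the chain that anchors the kinase TYK2, had SC levels of 6.92, 6.97 and 7.20 in wild-type nerve, 7.24, 6.25 and 7.08 in mutant nerve, and 7.30, 7.51 and 7.82 in neurofibroma. In macrophages it was 8.28, 8.35 and 8.23 in wild-type nerve, 8.48 to 8.69 (median 8.56) in mutant nerve, and 9.47, 9.20, 9.02 and 9.35 in neurofibroma. All macrophage arrays lay above all SC arrays and the macrophage groups did not overlap, with neurofibroma highest. The SC minus macrophage difference was -1.26 in wild-type nerve, -1.71 in mutant nerve and -1.72 in neurofibroma (adjusted p = 3.83e-05, 1.64e-07 and 2.26e-07).

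Ifnar2, the chain that binds JAK1 and holds the type I ligand most tightly, varied little within groups. Its SC levels were 8.96, 8.81 and 8.80 in wild-type nerve, 8.61, 8.78 and 8.87 in mutant nerve, and 8.97, 8.96 and 8.94 in neurofibroma. In macrophages they were 9.47, 9.35 and 9.53 in wild-type nerve, 9.57 to 9.74 (median 9.63) in mutant nerve, and 9.96, 9.80, 9.93 and 9.80 in neurofibroma. The macrophage groups stood apart from each other and above SCs, while wild-type SCs overlapped both other SC groups. The shares of all genes whose macrophages lay apart in these ways are those given for Ifnar1. The differences between cell types, -0.59, -0.89 and -0.92, passed the test (adjusted p = 2.02e-04, 3.44e-07 and 3.49e-07) but stayed under the fold change of 2 that a call required.

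Ifngr1, the ligand-binding chain for interferon gamma, overlapped between the cell types of wild-type nerve, with 6.96, 6.75 and 6.99 in SCs and 6.83, 7.01 and 7.23 in macrophages. In mutant nerve it was 6.92, 6.36 and 6.97 in SCs and 7.06 to 7.46 (median 7.38) in macrophages. In neurofibroma it was 7.37, 7.29 and 6.71 in SCs and 8.45, 8.15, 8.16 and 8.31 in macrophages. The neurofibroma macrophages lay above every other array, and the other 5 groups formed an overlapping order. Neurofibroma macrophages lay above every mutant nerve macrophage array for 13.8% of all genes. The SC minus macrophage difference was -0.12 in wild-type nerve (95% confidence interval -0.51 to 0.26, adjusted p = 0.657), -0.53 in mutant nerve (adjusted p = 0.0183) and -1.14 in neurofibroma (adjusted p = 2.67e-05). Without mutant SC array 8, which read 6.36, the difference in mutant nerve was -0.32 and no longer passed the test (adjusted p = 0.177).

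Ifngr2, the signaling chain that recruits JAK2 and limits the response of many cells to interferon gamma, separated the cell types in every tissue. Its SC levels were 7.04, 7.01 and 7.20 in wild-type nerve, 6.87, 6.98 and 7.28 in mutant nerve, and 7.29, 7.42 and 7.04 in neurofibroma. In macrophages it was 8.21, 8.07 and 8.18 in wild-type nerve, 8.40 to 8.67 (median 8.56) in mutant nerve, and 9.15, 9.12, 9.16 and 9.23 in neurofibroma. The macrophage groups rose without overlap from wild type through mutant nerve to neurofibroma, and the SC groups overlapped. The shares of all genes separated in these ways, between cell types and among macrophages, are those given for Ifnar1. The differences between cell types were -1.07, -1.50 and -1.91 (adjusted p = 1.26e-06, 2.21e-09 and 1.00e-10).

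A gene was called where limma's adjusted p was below 0.05 and the change exceeded 2-fold. On this basis 3 of the 7 genes were lower in SCs than in macrophages in wild-type nerve (Ifnb1, Ifnar1 and Ifngr2), beside 5.03% of all genes called in that direction. The same 3 were called in mutant nerve, beside 5.75% of all genes, and Ifngr1 was called in addition in neurofibroma, beside 5.91%. Without the neurofibroma SC array that read 6.71, Ifngr1 differed by -0.95 there and was not called. 0 of the 7 were called higher in SCs, where 8.94%, 7.26% and 6.5% of all genes were. The median difference of the 7 genes was -0.68, -0.89 and -1.14, beside medians of -0.06, 0.00 and -0.02 over all genes. In mutant nerve the macrophage arrays were in label batch 1 and SC arrays 8 and 9 in batch 2. In wild-type nerve the macrophage arrays were in label batch 2 and SC array 1 in batch 1. Cell type and label batch thus partly coincide in both. Among 14 chains of other cytokine receptors listed for comparison, 6 were lower and 5 higher in SCs of wild-type nerve. The lower ones include the TNF receptor gene Tnfrsf1b (-4.42) and Il10rb (-2.46), which also belongs to the type III interferon system. Macrophage markers detected in SC fractions and SC or fibroblast markers detected in macrophage fractions, at 4.63 to 7.26 for the 8 fibroblast markers, were measured beside these differences, and their part in them was not tested.

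**Figure D3:**
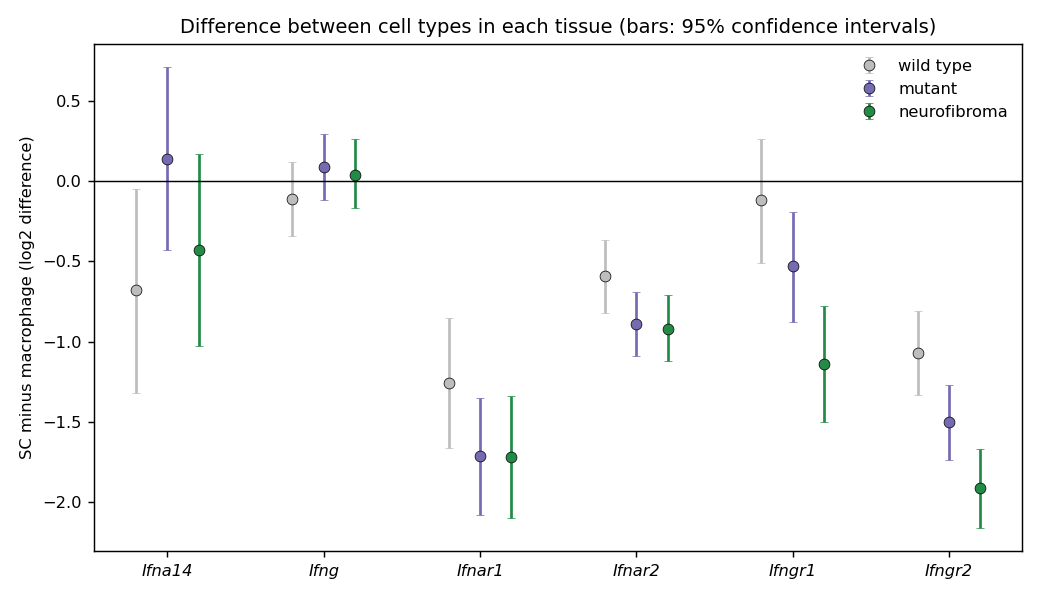
Log2 difference between SCs and macrophages (vertical axis) in wild-type nerve, mutant nerve and neurofibroma for 6 of the genes, with 95% confidence intervals. Ifnb1, at -7.12, -7.61 and -5.65, is left off the scale. The interval of Ifngr1 in wild-type nerve includes 0 and that in neurofibroma does not (-1.14), and the Ifngr2 points run from -1.07 to -1.91.

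To ask what loss of Nf1 did before tumors form, SCs of mutant and wild-type nerve were compared at 1 month. Of the 7 genes 0 were called, where 0% of all genes were (0.00451% with the array set as a term), although 1623 genes had an unadjusted p under 0.05. Ifnb1 was lower on every mutant SC array than on any wild-type array, as were 6.93% of genes, with a difference of -1.62 (standard error 0.38, adjusted p = 0.663), and all mutant values were below the yardstick. Without wild-type array 2, which carried seminal vesicle genes, the difference was -1.11 (adjusted p = 0.799). Wild-type array 3, which also carried them, stayed in that fit. Ifna14 was higher on every mutant array, as were 6.24% of genes, by 0.67 (standard error 0.21, adjusted p = 0.669). The receptor chains differed by -0.17 to -0.04. By the batch number in the labels, 1 wild-type and 1 mutant SC array were in batch 1 and the others in batch 2. Within batch 2, where both wild-type arrays carried seminal vesicle genes, Ifnb1 differed by -1.98 (adjusted p = 0.965). In batch 1 it read 2.73 (wild type) and 1.84 (mutant), both below the yardstick.

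In macrophages of mutant nerve, which retain Nf1, 0 of the 7 genes were called against wild type, again with 0% of all genes called and 0.00451% past the adjusted p alone. An unadjusted p under 0.05 was found for 3663 genes. Ifnb1 had a difference of -1.13 (standard error 0.26, adjusted p = 0.0915), with every mutant nerve array under every wild-type array, as for 5.38% of genes. Without wild-type array 4 it passed the test (-1.28, adjusted p = 0.0416), but the wild-type arrays left then both carried seminal vesicle genes. Without wild-type arrays 5 and 6 together, which leaves array 4 alone in the wild-type group, the difference was -0.85. Ifnar1, Ifnar2 and Ifngr2 were higher on every mutant nerve array, as were 4.08% of genes, by 0.29, 0.20 and 0.39 (adjusted p = 0.234, 0.331 and 0.101). All wild-type macrophage arrays were in label batch 2 and all mutant nerve macrophage arrays in batch 1, so genotype and label batch cannot be told apart. Of 20 measured genes that type I interferon induces, 0 were called and 0 had a positive difference, with a median of -0.63 beside -0.02 over all genes.

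Between mutant nerve and neurofibroma, 1 of the 7 genes was called in macrophages and 1 in SCs, on values adjusted with ComBat, where 4.95% and 5.63% of all genes were called in either direction. In macrophages this was Ifnb1, which fell by 1.32 on the log2 scale (standard error 0.24, adjusted p = 9.56e-04), beside 2.34% of all genes called lower. Its groups did not overlap on either scale, and after adjustment 15.7% of all genes lay apart in this direction. Ifngr1 rose by 0.98 (adjusted p = 7.14e-05), Ifnar1 by 0.69 (adjusted p = 2.68e-04) and Ifngr2 by 0.62 (adjusted p = 2.23e-04), each under 2-fold. Ifng differed by 0.77 (adjusted p = 3.95e-05) in the direction that the adjustment sets. In deposited values it differed by -0.67, where the median over all genes was also -0.67. An adjusted p under 0.05 was reached by 34.8% of all genes, so 5 of 7 is to be read against that share. In deposited values the macrophage means of Ifnar1 were 8.81 in mutant nerve and 8.81 in neurofibroma, and those of Ifngr2 8.76 and 8.76, whereas Ifngr1 went from 7.45 to 7.96. These values stand beside the median difference of -0.67 over all genes on that scale. The size of the rise of Ifnar1 and Ifngr2 thus depends on how the array sets are aligned. It was 0.84 for both with array medians centred, and 0.52 and 0.51 with quantile normalization.

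In SCs the called gene was Ifna14, which fell by 1.16 (standard error 0.21, adjusted p = 0.00658), beside 3.11% of all genes called lower. The call was lost with array medians centred (-0.37, adjusted p = 0.245), with quantile normalization (-0.53, adjusted p = 0.224) and without mutant array 8 (-0.96, short of 2-fold). The neurofibroma SC arrays lay below all mutant arrays, as for 21.2% of all genes, and below all wild-type arrays, as for 22.2%. Against wild type Ifna14 differed by -0.50 (adjusted p = 0.13). Ifng differed by 0.73 after adjustment (adjusted p = 0.00829) and by -0.72 as deposited, where the median over all genes was -0.66. Ifnb1 differed by 0.64 (adjusted p = 0.268), with every array of both groups under the yardstick. The receptor chains differed by 0.20 to 0.69 and did not pass the test, the smallest adjusted p being 0.0885 for Ifnar1. The macrophage marker mean was 4.10 to 4.35 in mutant and 5.09 to 5.42 in neurofibroma SCs, with 5 of 12 markers called higher, among them Lyz2 (3.21) and C1qb (2.39). The fibroblast marker mean was 8.48 to 8.92 and 7.78 to 8.20, with 4 of 8 called lower, led by Dpt (-2.72) and Col1a1 (-2.03), and 1 higher. The part of these markers in the SC values was not tested.

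**Figure D4:**
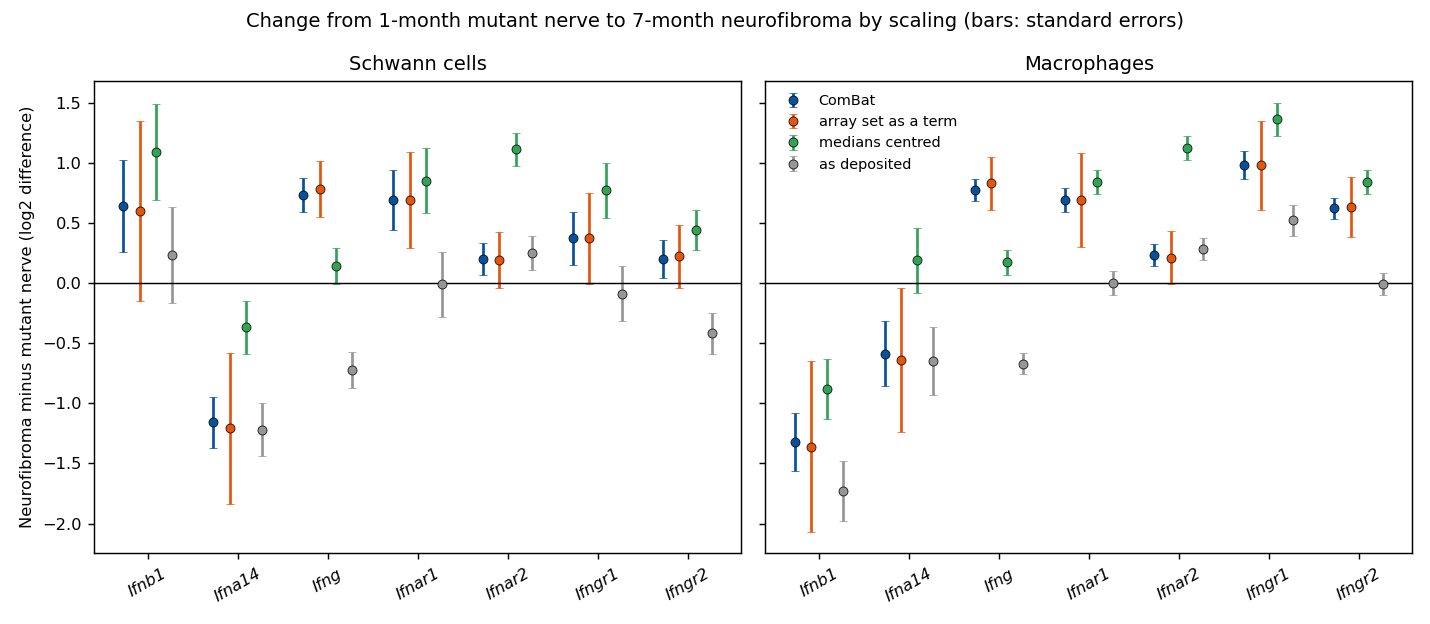
Log2 difference between neurofibroma and mutant nerve (vertical axis, bars are standard errors) for the 7 genes in SCs (left) and macrophages (right) under 4 treatments of the array sets. Ifnb1 in macrophages lies below 0 under all 4 treatments (-1.32, -1.36, -0.88 and -1.73), Ifngr1 in macrophages above 0 under all 4, and Ifng changes sign with the treatment in both cell types. Ifna14 in SCs shrinks from -1.16 to -0.37 with medians centred.

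When the error of the control pair was allowed to enter the test, by fitting deposited values of all 23 arrays with the array set as a term, no interferon gene was called between the ages. In that fit 0.23% of all genes were called in SCs against mutant nerve and 0.225% in macrophages. The estimates hardly moved, with Ifnb1 at -1.36 (adjusted p = 0.666) and Ifngr1 at 0.98 (adjusted p = 0.42) in macrophages and Ifna14 at -1.21 (adjusted p = 0.618) in SCs. The comparison with mutant nerve in macrophages also coincides with the label batch, batch 1 in mutant nerve and batch 2 in neurofibroma. With array medians centred in place of ComBat, Ifnb1 differed by -0.88 (adjusted p = 0.0122), short of 2-fold, and Ifngr1 and Ifnar2 were called higher, by 1.36 and 1.12. In macrophages the 8 fibroblast markers averaged 5.0 to 7.20 in mutant nerve and 4.63 to 4.81 in neurofibroma. The 10 measured SC markers averaged 4.69 to 5.75 and 3.88 to 4.21 on the same arrays, and the 12 macrophage markers 9.10 to 9.32 and 9.64 to 9.85. The part of these markers was not tested. In such sorted mixtures fewer cells of a type and less RNA per cell cannot be told apart.

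Against wild-type macrophages, for which the same neurofibroma arrays served, 3 of the 7 genes were called, beside 6.22% of all genes in either direction. Ifnb1 fell by 2.44 (standard error 0.27, adjusted p = 4.08e-05), beside 2.93% of all genes called lower. Ifngr1 rose by 1.24 (adjusted p = 4.72e-05) and Ifngr2 by 1.01 (adjusted p = 2.26e-05), beside 3.3% called higher, the latter barely past 2-fold. Ifnar1 differed by 0.97 (adjusted p = 7.54e-05) and Ifnar2 by 0.42 (adjusted p = 0.00678). With Ifng, 6 of the 7 genes had an adjusted p under 0.05, as did 35.5% of all genes. Both groups were in label batch 2. Without wild-type arrays 5 and 6, Ifnb1 differed by -2.16 (adjusted p = 0.00906), Ifngr1 by 1.44 and Ifngr2 by 0.95, which is short of 2-fold, and with the array set as a term 0 of the 7 genes were called, beside 0.207% of all genes. In deposited values Ifnar1 differed by 0.28, Ifngr2 by 0.39, Ifngr1 by 0.78 and Ifnb1 by -2.85. On that scale the medians of the sorted-cell arrays were 3.74 to 3.86 at 1 month and 2.92 to 2.97 at 7 months. In SCs against wild type 0 of the 7 were called, where 6.47% of all genes were (2.37% higher), and 0 with the array set as a term, where 0.311% were.

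The offset between array sets cancels in the difference between the changes of the cell types, but an offset between label batches does not. Mutant nerve macrophages and mutant SC array 10 were in label batch 1. Mutant SC arrays 8 and 9 and all neurofibroma arrays were in label batch 2. From mutant nerve to neurofibroma the change of Ifnb1 in macrophages lay below that in SCs (difference of log2 changes -1.96, standard error 0.46, adjusted p = 0.022), and Ifnb1 was the only 1 of the 7 genes called, beside 1.04% of all genes called in that direction. The same estimate came from deposited values (adjusted p = 0.0363). Part of it is a gap of 0.64 between SC values that lie below the yardstick. The difference lost the test when mutant SC array 8, the neurofibroma macrophage array with the lowest Ifnb1 (7.53) or the neurofibroma SC array with the highest (3.00) was left out, the highest adjusted p being 0.0757. For Ifngr1 it was 0.61 and for Ifngr2 0.41 (adjusted p = 0.208 for each), so their rise in macrophages was not shown to differ from the change in SCs.

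The 14 other type I ligands measured gave 0 calls in the comparisons between tissues. From mutant nerve to neurofibroma 4 of 14 had a positive difference in SCs and 2 of 14 in macrophages, with medians of -0.15 and -0.32 beside -0.04 over all genes in both. These counts turn with the scaling, being 11 of 14 in SCs and 9 of 14 in macrophages with array medians centred, and 0 of 14 in both in deposited values. Ifna4 was the only 1 of them called between cell types, lower by 1.07 in wild-type SCs (adjusted p = 0.00426). Of the type III system, Il10rb, a shared receptor chain that lies between Ifnar2 and Ifnar1, was lower in SCs by 2.46 in wild-type nerve, 2.62 in mutant nerve and 2.95 in neurofibroma. It differed by 0.24 between mutant nerve and neurofibroma macrophages, while its neighbors differed by 0.23 (Ifnar2) and 0.69 (Ifnar1).

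Downstream of the receptors, 2 of 5 measured kinases and STAT factors rose in neurofibroma macrophages over mutant nerve, a comparison in which 2.62% of all genes were called higher. Stat2, which carries the type I signal to the nucleus, rose by 1.44 (adjusted p = 2.13e-04) and Jak2, the kinase of IFNGR2, by 1.27 (adjusted p = 3.63e-04). Among 9 negative regulators Socs3 rose by 1.15 and Ptpn6, a phosphatase of blood cells, by 1.14. Of 16 sensors and inducing factors 3 rose, namely Dhx58 (1.73) and Ifih1 (adjusted p = 7.21e-04), which sense viral RNA, and Irf7 (1.5), which drives interferon alpha genes. Of 11 factors that induce Ifng 1 rose, Stat4 (4.10). Of 20 genes induced by type I interferon 12 rose and 0 fell, with a median of 1.10 beside -0.04 over all genes, led by Bst2 (2.68), which tethers virions, Zbp1 (2.21), Herc6 (2.20) and Rtp4 (1.39). Of 22 genes induced by interferon gamma 2 rose and 1 fell, the latter being Cxcl9, a T cell chemokine, with -2.98. With the array set as a term 0 genes of these lists were called, the medians being 1.08 and 0.47 for the lists induced by type I interferon and interferon gamma, and in deposited values the former had a median of 0.04 beside -0.67 over all genes.

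In SCs over mutant nerve, where 2.52% of all genes were called higher, 4 of 20 genes induced by type I interferon rose, namely Herc6 (1.93), Rtp4 (1.51), Parp14 (1.51) and Bst2 (1.45), with a median of 0.38. Of those induced by interferon gamma 3 of 22 rose, namely Gbp5 (2.57), Cd274 (1.46), which encodes PD-L1, and Irf1 (1.09), with a median of 0.38. With the array set as a term 0 genes of both lists were called (adjusted p = 0.197 to 0.596 for the 7 named). Of the type I genes 1 was called higher with quantile normalization, and 0 higher and 1 lower in deposited values, where their median was -0.11 beside -0.66 over all genes. Macrophage markers such as Lyz2 and C1qb were called higher on the same SC arrays, as given above, and their part was not tested. Of the kinases, STAT factors, regulators and sensors 0 were called there. The difference between cell types in these changes was called for 1 of the 20 type I genes, Mx1, an antiviral GTPase (1.44, adjusted p = 0.0179). Against wild type, the SC lists gave 1 of 20 and 2 of 22 higher, with 0 and 2 lower. Over all genes 2.37% were called higher and 4.1% lower there. The macrophage lists gave 3 of 20 and 0 of 22 higher, with 1 and 2 lower, beside 3.3% and 2.93% of all genes. All of these calls were lost with the array set as a term. Between the cell types of wild-type nerve, where 5.03% of all genes were called lower in SCs, 18 of 20 type I genes were lower. Their median was -2.23, Oasl1 was lowest (-4.39) and Ifi27 went the other way (1.1). Of the interferon gamma genes 7 of 22 were lower (median -0.51), led by H2-Ab1 (-4.95).

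Across the 21 sorted-cell arrays, which share 6 groups and 2 array sets, the profile of Ifnb1 was closest to Ccl6 (Pearson r = 0.985), a macrophage chemokine, Folr2 (0.978), a folate receptor of resident macrophages, and Pik3r5 (0.975). Ifnar2 and Ifngr2 were each other's nearest gene (r = 0.981), and Ifngr2 was followed by Itgam (0.98), which encodes the CD11b used for the sort. Ifnar1 was closest to Rnf149 (0.981) and Ifngr1 to Smchd1 (0.931). The genes nearest to Ifng were Mep1b, Skint9 and Dlg2 (0.971, 0.97 and 0.969), and those nearest to Ifna14 were Kif22, Angel1 and Tbc1d22bos (0.862, 0.855 and 0.85). Among the members r ranged from -0.60 (Ifna14 and Ifng) to 0.98 (Ifnar2 and Ifngr2), and Ifnb1 had r = 0.85 with Ifnar2 but 0.41 with Ifngr1. These values describe arrays that differ mainly by cell type and array set.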

How the data were processed

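Affymetrix Mouse Gene 2.0 ST arrays carried RNA from sorted cells (21 arrays) or universal control RNA (2 arrays). The authors summarized probe sets by RMA in Affymetrix Expression Console (version 1.3.1.187, mm10 annotation) and deposited log2 values of 41345 transcript clusters. The study's methods name ComBat, but the deposited values still differ between 2 array sets, which do not follow the batch in the labels. Deposited values were therefore adjusted by an R (version 4.3.3) implementation of ComBat, taking array set as batch and keeping group as covariate. Of the clusters, 23521 carried 1 gene, giving 22180 genes, of which 21994 were matched to GRCm38.p6. Linear models in limma (version 3.58.1) took the 3 groups of 1 cell type, or all 6 groups for comparisons between cell types and their interaction, with Benjamini-Hochberg adjustment over all genes. Called genes had an adjusted p below 0.05 together with a change of over 2-fold.

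The members and the 15 gene lists were chosen with earlier results of these data known, and nothing in the lists' counts is independent support. Named genes were all members, up to 4 called genes of each list with the largest change, and the 3 genes closest to each member. Alternatives were other treatments of the array sets, label batch, fit, filter, cluster choice, variance model, fold threshold, a replicate block and each array left out. Steps were tested on simulated data. The number of arrays limits the precision. Python (version 3.11.15) with matplotlib (version 3.10.9) served for promoter searches and plots.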

Additional observations from a re-analysis of the deposited data

Results flagged for a closer look

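Ifng on mutant nerve macrophage array 11 read 2.63, apart from the other 4 arrays of its group, which lay between 2.71 and 2.74. Chance marks about 1 in 20 groups in this way, 14 combinations of gene and group were examined, and the value lies below the level of unexpressed genes.

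The change of Ifnb1 from mutant nerve to neurofibroma differed between the cell types, by -1.96 (macrophage change minus SC change, adjusted p = 0.022 from limma). It rested on a fall in macrophages, with all 4 neurofibroma arrays under all 5 mutant nerve arrays, as for 15.7% of all genes. It also rested on SC values below the level of unexpressed genes. The label batch, which is unevenly spread over the mutant groups, does not cancel in this difference.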

How the results depend on the processing

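Counts below are numbers of the 7 genes called. From mutant nerve to neurofibroma, SCs gave 1 (Ifna14) and macrophages 1 (Ifnb1). In SCs this became 0 with the array set as a term, with quantile normalization and with a replicate block, and 2 with no fold threshold. With array medians centred it stayed at 1, but the gene was Ifnar2 (1.11) in place of Ifna14 (-0.37). In macrophages it became 0 with the array set as a term, 2 with array medians centred, with quantile normalization and with label batch as a term, and 5 with no fold threshold. Against wild type, SCs went from 0 to 1 with label batch as a term, with a replicate block, in deposited values and with no fold threshold. Macrophages went from 3 to 0 with the array set as a term, 5 with array medians centred, 6 with no fold threshold and 1 in deposited values, and with a replicate block the 3 were Ifnb1, Ifnar1 and Ifngr1. Between cell types of mutant nerve the count went from 3 to 5 with no fold threshold. With each array left out in turn the counts ranged from 0 to 1 in SCs against mutant nerve (0 without mutant array 8) and against wild type (1 without wild-type array 1). They ranged from 0 to 1 in macrophages of mutant nerve against wild type (1 without wild-type array 4), from 1 to 2 in macrophages against mutant nerve (2 without mutant nerve array 11, 14 or 15 or the neurofibroma array with Ifnb1 at 8.21 or 9.00), and from 0 to 1 for the difference between the changes of the cell types. In macrophages against wild type they ranged from 2 to 4, since Ifngr2 fell short of 2-fold without wild-type array 5 (0.97) or 1 neurofibroma array (0.99), and Ifnar1 passed it without wild-type array 5 (1.01) or another neurofibroma array (1.03). Between the cell types of neurofibroma they ranged from 3 to 4, Ifngr1 being lost without 1 SC array.

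The replicate block used 2 replicate numbers that occur in both cell types at 7 months, where the labels do not say that the pairs share an animal. With it Ifna14 in SCs differed by -0.90 (adjusted p = 0.0926) and Ifnb1 in macrophages by -1.64 (adjusted p = 4.96e-04). Over all genes, the comparison with mutant nerve called 1248 (SCs) and 1099 (macrophages), against 51 and 50 with the array set as a term. The cause of these shifts was not tested, beyond the wider error that the control pair brings into that fit. Arrays of label batch 2 alone gave no macrophage comparison with mutant nerve. For single genes, 1314 combinations of gene, comparison and setting kept their side of the calling threshold, 33 became called and 22 ceased to be called, and no called gene changed sign. Genes that were not called could change sign, as Ifng did between the ages in deposited values.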
